A study of Mus musculus with 6 samples.

Results

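The genes that build and load MHC class I molecules were followed here in skin of diabetic ulcer mice, together with the 3 inducible proteasome subunits that cut their peptides. The group held 10 genes, H2-K1, H2-D1, B2m, Tap1, Tap2, Tapbp, Psmb8, Psmb9, Psmb10 and Nlrc5, taken by gene symbol from a deposited table of 57010 gene rows. Each symbol matched 1 row, and all 10 genes averaged at least 1 FPKM (fragments per kilobase of gene and per unit of depth), the level set for testing. RNA was sequenced from skin of 6 mice, 3 given CST and 3 given Yoda1, each as a gel on the skin, at the time the ulcer study ended. CST is the cortistatin of the series title, a neuropeptide related to somatostatin, and Yoda1 is a synthetic opener of the ion channel Piezo1. All 6 mice were labelled WT for genotype and were kept free of specific pathogens. The sources used here do not give the mouse strain, age or sex, the way diabetes was brought about or the gel doses. Skin without either drug was not analysed here, so every difference sets CST against Yoda1.

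The samples were tagged both as skin and as keratinocytes. Summed levels of 7 keratinocyte markers were 13646 to 19420 FPKM in CST skin and 10604 to 24832 FPKM in Yoda1 skin, but fibroblast markers (2254 to 4109 FPKM in CST and 2117 to 7412 FPKM in Yoda1) and leukocyte markers (464 to 832 FPKM in CST and 396 to 1287 FPKM in Yoda1) were also present, so the libraries are described as whole skin. The depth recovered from the FPKM values was 23791352 to 29620526 reads per library. CST mouse 1 and Yoda1 mouse 3 stood apart, with 6.72% and 7.61% of their FPKM in mitochondrially encoded transcripts, against 3.25% to 3.81% in the other 4 libraries. Results are therefore also given without them. Skeletal muscle markers were higher in CST skin for 6 of 6 genes, with sums of 5854 to 10786 FPKM in CST and 93.2 to 4178 FPKM in Yoda1, and the part of muscle content in the results was not tested.

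MHC class I molecules show fragments of a cell's own proteins to CD8 T cells. Proteasomes cut the proteins, the TAP transporter carries the peptides into the endoplasmic reticulum, tapasin helps to load them onto a heavy chain paired with beta2-microglobulin, and the complex moves to the cell surface. Interferons raise this machinery and swap the standard catalytic subunits of the proteasome for the inducible ones, and NLRC5 acts as the transactivator of class I genes. In skin, class I is carried by keratinocytes, fibroblasts and leukocytes alike.

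The start regions of 5 genes are shown because class I genes are known for a shared set of control elements just upstream, and because Tap1 and Psmb9 start next to each other. RefSeq promoters on GRCm38.p6 were found for 8 of the 10 genes, each with 250 bases before and 50 bases from the first transcribed base on, read along the gene's strand. They are H2-K1 (chr17:34000298-34000597, minus strand), H2-D1 (chr17:35262844-35263143, plus strand), B2m (chr2:122147437-122147736, plus strand), Tap1 (chr17:34187306-34187605, plus strand) and Psmb8 (chr17:34197945-34198244, plus strand). Capitals mark matches, on either strand, to the IRF core, the ISRE, the GAS, the kappaB element and the Y box.
H2-K1: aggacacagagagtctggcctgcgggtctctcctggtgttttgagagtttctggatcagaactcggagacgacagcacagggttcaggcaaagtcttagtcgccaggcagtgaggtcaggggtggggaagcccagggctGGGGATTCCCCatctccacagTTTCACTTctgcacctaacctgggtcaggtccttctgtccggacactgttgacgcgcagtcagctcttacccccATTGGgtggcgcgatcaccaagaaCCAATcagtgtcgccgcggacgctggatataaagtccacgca
H2-D1: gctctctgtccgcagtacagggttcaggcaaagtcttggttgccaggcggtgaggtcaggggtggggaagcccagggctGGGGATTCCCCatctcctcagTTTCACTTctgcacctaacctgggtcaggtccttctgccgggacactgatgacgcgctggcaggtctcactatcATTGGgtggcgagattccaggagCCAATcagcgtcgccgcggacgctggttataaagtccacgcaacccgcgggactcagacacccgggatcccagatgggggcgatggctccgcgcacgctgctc
B2m: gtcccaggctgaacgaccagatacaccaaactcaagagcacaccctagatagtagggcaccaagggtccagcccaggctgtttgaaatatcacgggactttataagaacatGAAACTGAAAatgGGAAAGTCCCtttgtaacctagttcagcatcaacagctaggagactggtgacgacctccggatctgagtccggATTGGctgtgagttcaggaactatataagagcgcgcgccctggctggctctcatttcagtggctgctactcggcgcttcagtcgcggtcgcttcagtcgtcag
Tap1: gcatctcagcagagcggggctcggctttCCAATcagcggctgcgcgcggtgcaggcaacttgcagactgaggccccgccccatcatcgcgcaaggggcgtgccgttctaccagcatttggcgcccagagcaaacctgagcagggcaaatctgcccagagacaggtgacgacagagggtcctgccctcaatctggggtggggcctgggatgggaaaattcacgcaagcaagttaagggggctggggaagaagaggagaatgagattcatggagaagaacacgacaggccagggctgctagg
Psmb8: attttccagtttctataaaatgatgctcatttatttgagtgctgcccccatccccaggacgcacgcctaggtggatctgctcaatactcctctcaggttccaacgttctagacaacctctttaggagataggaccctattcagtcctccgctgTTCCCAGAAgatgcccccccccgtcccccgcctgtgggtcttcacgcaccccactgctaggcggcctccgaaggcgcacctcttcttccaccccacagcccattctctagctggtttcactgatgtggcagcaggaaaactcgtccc

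In H2-K1 a kappaB match at positions -111 to -101 was followed by an IRF core (AANNGAAA) at -90 to -83 and by Y boxes (CCAAT, the NF-Y letters) on either side of the start, counting the first transcribed base as 1. RefSeq lists another H2-K1 start (window chr17:34000284-34000583), from which the IRF core lies at -104 to -97 and both Y boxes lie before the start, at -30 to -26 and -6 to -2. H2-D1 held the same elements in the same order, with kappaB at -171 to -161, the IRF core at -150 to -143 and Y boxes at -76 to -72 and -53 to -49. B2m held the longer ISRE (GAAA, any 2 bases, GAAA) at -139 to -130, which contains an IRF core, and a kappaB match at -126 to -117. The Tap1 window held a Y box at -222 to -218 and none of the interferon or kappaB letters, and it lies over the start of Psmb9 on the other strand (window chr17:34187281-34187580, minus strand). Psmb8 held a GAS (TTCNNNGAA, an interferon-gamma activated sequence) at -97 to -89. The H2-D1, Tapbp, Psmb8 and Psmb9 windows lie wholly inside these genes as the GENCODE M21 annotation places them (gene positions below). That annotation starts these genes further upstream, and positions counted from there would differ. Among all 32851 RefSeq promoter windows of that length, the IRF core occurred in 23.9%, the ISRE in 3.44%, the GAS in 8.3%, kappaB in 8.46%, the Y box in 37.4% and TGACG, the core of a cAMP response element, in 20.8%. Among the 8 genes with a window the IRF core was found in 3, the ISRE in 1, the GAS in 1, kappaB in 3, the Y box in 6 and TGACG in 5. The letters were chosen with these promoters in view, the bases are those of the reference genome and not of these mice, and a match describes letters only.

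All 10 genes had a lower mean in CST skin than in Yoda1 skin, and none passed the test. The log2 changes (CST minus Yoda1, of log2(FPKM + 1)) ran from -0.70 for Psmb10 to -0.26 for H2-K1, with a median of -0.41, against a median of -0.01 over the 14588 genes tested. A change below 0 was also found in 52.8% of all tested genes. By limma with Benjamini-Hochberg adjustment 0 of the 10 genes reached an adjusted p under 0.05, as did 0% of all genes, and each of the 10 had an adjusted p of 1.000. With unadjusted p under 0.05 the count was again 0 of 10, against a background of 0.788% of genes lower in CST. In no member did all CST mice lie below all Yoda1 mice, which 2.08% of genes did. Together the 10 genes made up 0.433%, 0.563% and 0.431% of all FPKM in CST mice, against 0.633%, 0.71% and 0.49% in Yoda1 mice, with mice 1 to 3 in order. In bulk skin, fewer cells of a type and less RNA per cell cannot be told apart.

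**Figure D1:**
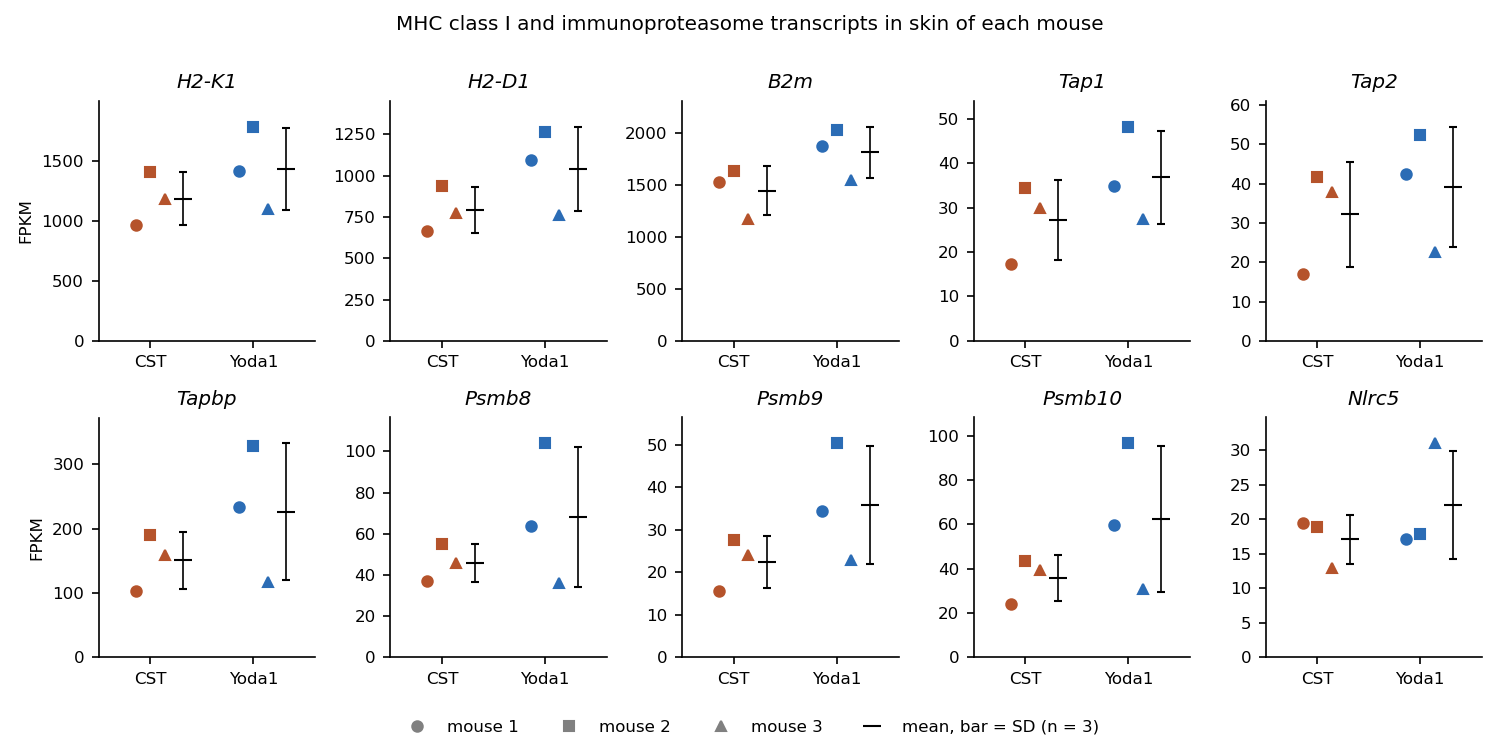
Level of each of the 10 genes (FPKM, vertical axes from 0) in each mouse, CST on the left and Yoda1 on the right of each panel; symbols mark the mouse number, and the bar is the mean with its SD (n = 3). Yoda1 mouse 2 was highest and Yoda1 mouse 1 next in 9 genes. Yoda1 mouse 3 lay within the CST range in 8 of these and below it in Psmb8, whereas Nlrc5 was highest in Yoda1 mouse 3.

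The heavy chains and their light chain were the most abundant of the 10. H2-K1, one of the classical heavy chains that present peptide (ENSMUSG00000061232, chromosome 17, 33996017 to 34000347, minus strand of GRCm38), measured 967, 1404 and 1179 FPKM in CST mice 1 to 3, against 1412, 1782 and 1098 FPKM in Yoda1 mice 1 to 3. The lowest Yoda1 mouse lay below 2 of the CST mice, so the groups overlapped. Its log2 change was -0.26 (SE 0.28, unadjusted p = 0.382 by limma). H2-D1, the other classical heavy chain (ENSMUSG00000073411, chromosome 17, 35262730 to 35267499, plus strand), measured 663, 940 and 776 FPKM in CST mice, against 1098, 1263 and 761 FPKM in Yoda1 mice. Again Yoda1 mice 1 and 2 were above every CST mouse and Yoda1 mouse 3 was not, with a log2 change of -0.37 (SE 0.28, unadjusted p = 0.219 by limma). The longest H2-K1 and H2-D1 transcripts were 90.7% identical over 1472 aligned bases, with identical runs of up to 91 bases, and H2-D1 shared a run of 130 bases with H2-Q7. The sources used here do not say how reads that fit several class I genes were counted, so the split between these genes is uncertain.

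B2m encodes beta2-microglobulin, the light chain needed for class I to reach the surface (ENSMUSG00000060802, chromosome 2, 122147686 to 122153083, plus strand). It measured 1529, 1632 and 1178 FPKM in CST mice, against 1873, 2029 and 1545 FPKM in Yoda1 mice. B2m differed from the heavy chains in having its lowest value in CST mouse 3, and Yoda1 mouse 3 passed CST mouse 1 by a small margin. The means were 1446 ± 238 FPKM in CST and 1816 ± 247 FPKM in Yoda1 (SD, n = 3 each), a log2 change of -0.33 (SE 0.26, unadjusted p = 0.237 by limma). These 3 genes also varied least, with the highest mouse at 1.84 times the lowest for H2-K1, 1.9 times for H2-D1 and 1.72 times for B2m.

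The transporter and loading genes stood far lower than the chains they serve and spread more. Tap1, one of the subunits of the peptide transporter (ENSMUSG00000037321, chromosome 17, 34187553 to 34197225, plus strand), measured 17.2, 34.5 and 29.8 FPKM in CST mice, against 34.8, 48.2 and 27.5 FPKM in Yoda1 mice. CST mouse 1 was the lowest of the 6, and Yoda1 mouse 1 exceeded CST mouse 2 by less than 1 FPKM. The log2 change was -0.44 (SE 0.32, unadjusted p = 0.204 by limma). Tap2, the partner subunit (ENSMUSG00000024339, chromosome 17, 34203527 to 34216321, plus strand), measured 17, 41.7 and 38 FPKM in CST mice, against 42.4, 52.5 and 22.5 FPKM in Yoda1 mice. Its sign rested on CST mouse 1, since the log2 change was -0.29 over all mice (SE 0.42, unadjusted p = 0.511 by limma) and 0.10 without that mouse (SE 0.37). Tapbp, which encodes tapasin, the bridge between TAP and the empty class I molecule (ENSMUSG00000024308, chromosome 17, 33915899 to 33929292, plus strand), measured 103, 191 and 159 FPKM in CST mice, against 234, 329 and 117 FPKM in Yoda1 mice. Yoda1 mouse 2 held 2.80 times the Tapbp level of Yoda1 mouse 3, a wider gap than that between the group means of 151 ± 44.5 FPKM in CST and 227 ± 106 FPKM in Yoda1 (SD, n = 3 each; log2 change -0.51, SE 0.41, unadjusted p = 0.248 by limma). Zbtb22 overlaps Tapbp on the same strand over 3422 bases and measured 14.9 to 23.9 FPKM, so part of the Tapbp value is uncertain.

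The 3 inducible proteasome subunits had some of the largest mean differences of the group. Psmb8, the chymotrypsin-like subunit LMP7 (ENSMUSG00000024338, chromosome 17, 34197721 to 34201454, plus strand), measured 37, 55.2 and 45.6 FPKM in CST mice, against 63.9, 104 and 36.3 FPKM in Yoda1 mice. Yoda1 mice 2 and 3 were the highest and the lowest of all 6, and the log2 change was -0.45 (SE 0.37, unadjusted p = 0.263 by limma). Psmb9, the subunit LMP2 (ENSMUSG00000096727, chromosome 17, 34181987 to 34187764, minus strand), measured 15.7, 27.6 and 24.1 FPKM in CST mice, against 34.4, 50.4 and 22.9 FPKM in Yoda1 mice. The log2 change was -0.62 (SE 0.33, unadjusted p = 0.102 by limma), the smallest p of the group. Psmb10, the trypsin-like subunit MECL-1 (ENSMUSG00000031897, chromosome 8, 105935735 to 105938444, minus strand), measured 23.9, 43.4 and 39.6 FPKM in CST mice, against 59.9, 96.6 and 31 FPKM in Yoda1 mice. It varied most, with the highest mouse at 4.04 times the lowest, and had a log2 change of -0.70 (SE 0.42, unadjusted p = 0.137 by limma). Tap1 and Psmb9 overlap head to head by 212 bases on opposite strands, and since the sources used here do not give the strand setting of the counting, reads of that stretch cannot be assigned.

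Nlrc5, the class I transactivator (ENSMUSG00000074151, chromosome 8, 94434356 to 94527272, plus strand), did not share the pattern of the genes it is known to control. It measured 19.4, 18.9 and 13 FPKM in CST mice, against 17.1, 17.9 and 31 FPKM in Yoda1 mice. Yoda1 mice 1 and 2, which were highest in the other 9 genes, lay below CST mice 1 and 2 here, and Yoda1 mouse 3 was the highest of the 6. The log2 change of -0.32 (SE 0.29, unadjusted p = 0.305 by limma) was -0.05 without Yoda1 mouse 3 (SE 0.24). As a description over the 6 libraries, which share groups and depth scaling, Pearson's r of log2(FPKM + 1) between Nlrc5 and the other 9 genes ran from -0.51 to 0.25 with a median of -0.26. Between the 28 pairs that leave out Nlrc5 and B2m it ran from 0.85 to 0.99 with a median of 0.96, and B2m with the other 8 had a median of 0.67.

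The order of the mice was the same in 7 of the 10 genes. CST mouse 1 was lowest, then came Yoda1 mouse 3, CST mouse 3, CST mouse 2, Yoda1 mouse 1 and Yoda1 mouse 2. Psmb8 swapped the lowest pair, and B2m and Nlrc5 had orders of their own. The mean log2(FPKM + 1) of the 10 genes was 6.32, 6.96 and 6.69 in CST mice 1 to 3, against 7.12, 7.51 and 6.63 in Yoda1 mice 1 to 3. Relative to the CST mean, Yoda1 mouse 3 held 0.70 times the level of Tap2 at the lowest and 1.07 times that of B2m at the highest among 9 genes, and 1.81 times that of Nlrc5.

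Without Yoda1 mouse 3 all CST mice lay below both remaining Yoda1 mice in 9 of the 10 genes, all but Nlrc5, where 16.3% of all tested genes did. The median log2 change was then -0.63. It was -1.12 for Psmb10 (SE 0.33, unadjusted p = 0.0115), -0.92 for Tapbp (SE 0.31, unadjusted p = 0.0222), -0.90 for Psmb9 (SE 0.30, unadjusted p = 0.0199) and -0.83 for Psmb8 (SE 0.28, unadjusted p = 0.0217), all by limma. These 4 genes were the ones with an unadjusted p under 0.05, against a background of 6.81% of genes lower in CST, and their adjusted p values ran from 0.309 to 0.336. Without CST mouse 1 as well, 9 of 10 genes again did not overlap, against 20.9% of all genes, 3 had an unadjusted p under 0.05, against 6.88% of genes lower in CST, and the median was -0.48. No member passed the adjusted threshold in either fit. Leaving out a single other mouse moved the median both ways from the -0.41 of all mice. It was -0.55 without CST mouse 2, -0.45 without CST mouse 3 and -0.43 without Yoda1 mouse 1. The median was smaller in size without CST mouse 1 alone, at -0.28, and without Yoda1 mouse 2 alone, at -0.23. In these last 2 fits 0 members had an unadjusted p under 0.05, against 149 and 95 of 14588 genes lower in CST. The members without overlap were also 0 in both, against 774 and 922 genes in that direction. With limma's library weights, which gave Yoda1 mouse 3 a weight of 0.193 and Yoda1 mouse 1 a weight of 12.8, 4 members had an unadjusted p under 0.05, against 15.7% of genes lower in CST, and 0 passed the adjusted threshold, which 9.24% of all genes did.

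**Figure D2:**
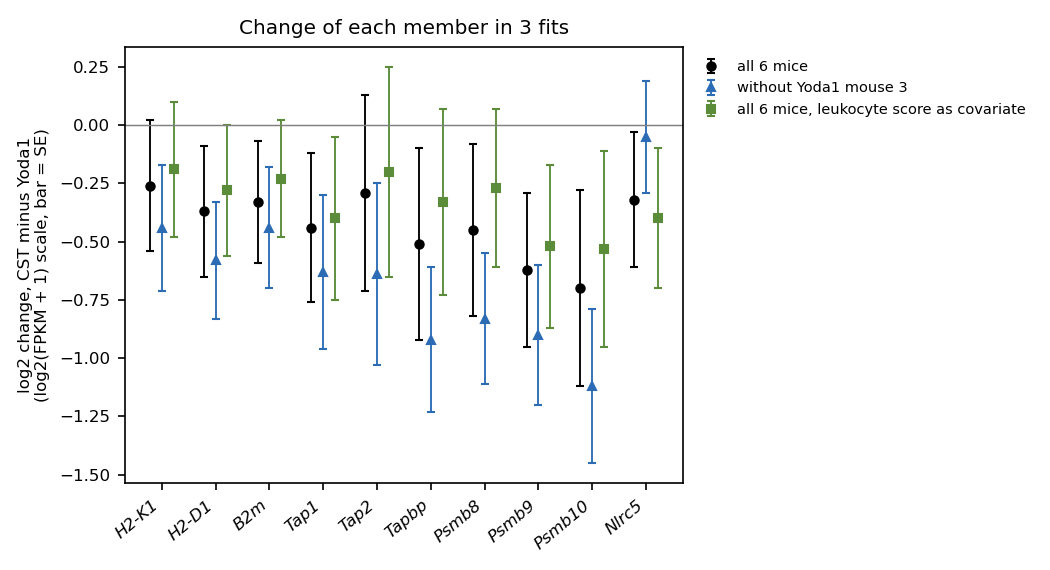
Log2 change of each gene, CST minus Yoda1 (vertical axis, log2(FPKM + 1) scale, bars are SE), over all 6 mice, without Yoda1 mouse 3, and over all mice with the mean of 6 leukocyte markers as a covariate. Points for Psmb10 sit at -0.70, -1.12 and -0.53 in that order, and the point for Nlrc5 moves to -0.05 without Yoda1 mouse 3.

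Each inducible subunit replaces 1 standard catalytic subunit in newly built proteasomes, so their ratio within a library was also compared. Psmb8 stood at 0.467, 0.523 and 0.424 times Psmb5 in CST mice 1 to 3, against 0.715, 0.878 and 0.524 times in Yoda1 mice 1 to 3. This was the one ratio in which all CST mice lay below all Yoda1 mice, though CST mouse 2 and Yoda1 mouse 3 were almost level, at a log2 ratio of -0.94 and -0.93. The difference in the mean log2 ratio was -0.56 (exact permutation test, two-sided p = 0.1, the smallest that 3 against 3 allows; 0.3 after adjustment over the 3 ratios). With the sum of Psmb5, Psmb6 and Psmb7 as the denominator the difference was -0.41 (exact permutation p = 0.4), and the groups overlapped. Psmb9 stood at 0.0929, 0.113 and 0.0932 times Psmb6 in CST mice, against 0.144, 0.188 and 0.107 times in Yoda1 mice. The difference was -0.52 on the log2 scale, with Yoda1 mouse 3 inside the CST range (exact permutation p = 0.2, adjusted 0.3). Psmb10 stood at 0.308, 0.517 and 0.472 times Psmb7 in CST mice, against 0.759, 1.08 and 0.378 times in Yoda1 mice. The ratio passed 1 in Yoda1 mouse 2 alone. Its level depends on the counted lengths implied by the FPKM steps, 799 bases for Psmb10 and 2005 for Psmb7. Which transcript was more abundant is therefore uncertain. The difference in the mean log2 ratio was -0.68 (exact permutation p = 0.3, adjusted 0.3).

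**Figure D3:**
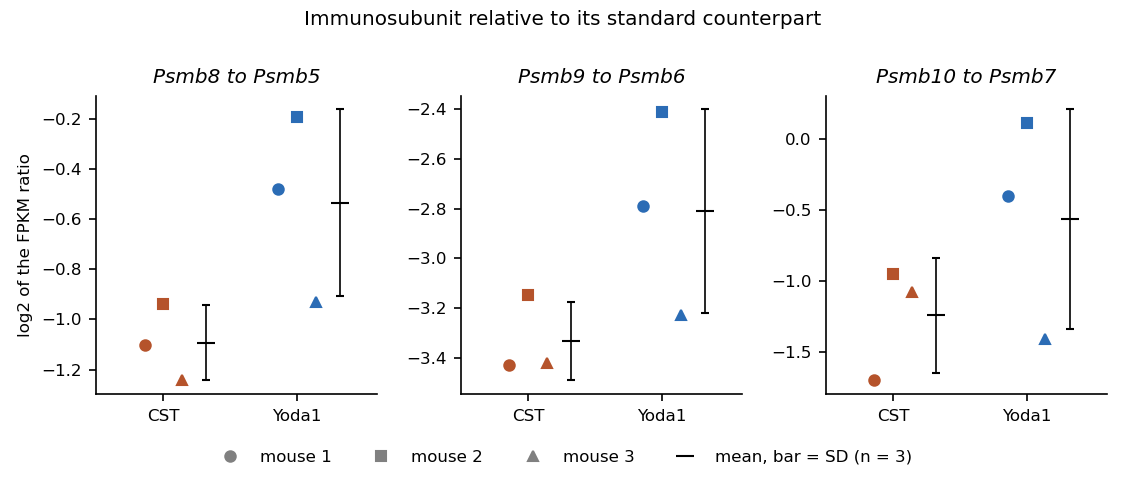
Log2 ratio of the FPKM of each inducible subunit to its standard counterpart (vertical axes) in each mouse, CST on the left and Yoda1 on the right; the bar is the mean with its SD (n = 3). Yoda1 mice 1 and 2 lie above every CST mouse in all 3 panels, and Yoda1 mouse 3 lies near or within the CST mice.

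The rest of the proteasome had changes with medians nearer to 0. The standard catalytic genes had log2 changes of 0.10 for Psmb5 (SE 0.26), -0.12 for Psmb6 (SE 0.24) and -0.03 for Psmb7 (SE 0.18), none of which passed the test. The 11 other genes of the 20S core had a median of -0.11, the 18 genes of the 19S cap that feeds it a median of 0.05, and the 9 activator and assembly genes a median of 0.02, and no gene of these lists had an unadjusted p under 0.05. Psme1 and Psme2, the interferon-inducible PA28 cap, measured 145, 172 and 188 FPKM and 111, 163 and 187 FPKM in CST mice, against 181, 257 and 156 FPKM and 166, 240 and 116 FPKM in Yoda1 mice. Like the inducible subunits they were highest in Yoda1 mouse 2, but the CST and Yoda1 mice otherwise overlapped.

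Among the other class I heavy chains 12 of 15 tested genes were below 0, with a median of -0.31 and 0 at an unadjusted p under 0.05. H2-T23, the Qa-1 chain read by NKG2A receptors, measured 63, 92.2 and 71.2 FPKM in CST mice, against 91.4, 123 and 80.6 FPKM in Yoda1 mice (log2 change -0.37, SE 0.24, unadjusted p = 0.168 by limma). Cd1d1, which presents lipids to NKT cells, was 9.61 to 10.9 FPKM in CST and 10.3 to 28.8 FPKM in Yoda1, with its high value in Yoda1 mouse 1. H2-M2 went the other way (log2 change 0.35, SE 0.25). Of the 9 genes for peptide trimming and quality control 8 were below 0, with a median of -0.15. In 3 of these 9 all CST mice lay below all Yoda1 mice, which 2.08% of all tested genes did. Erap1, the aminopeptidase that trims peptides in the endoplasmic reticulum, measured 22.4, 20.9 and 16.6 FPKM in CST mice, against 27.3, 27.1 and 25.8 FPKM in Yoda1 mice (log2 change -0.41, SE 0.20, unadjusted p = 0.0723, adjusted p = 1.000 by limma). Uggt1, a folding sensor for glycoproteins, measured 26.2, 29.4 and 24.9 FPKM in CST mice, against 31.7, 33.2 and 33.1 FPKM in Yoda1 mice, and the third was Pdia3, a disulfide isomerase of the loading complex.

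Genes of interferon signalling did not share 1 order of the mice. Of 16 factors known to act on class I promoters, 11 were below 0 with a median of -0.04, and 0 passed the adjusted threshold. All CST mice lay below all Yoda1 mice in 3 of these 16 and above them in 1, against 303 and 659 of 14588 tested genes. Of 12 tested genes for interferon receptors, kinases and feedback, 10 were below 0 with a median of -0.20. In 2 of these 12 all CST mice lay below all Yoda1 mice, and in 0 above. Stat2, a factor of type I interferon signalling, measured 25.8, 32.5 and 17 FPKM in CST mice, against 40.6, 41.7 and 44.6 FPKM in Yoda1 mice (log2 change -0.78, SE 0.26, unadjusted p = 0.0175, adjusted p = 0.767 by limma). Here Yoda1 mouse 3 stood with the other Yoda1 mice, and the groups did not overlap. Irf9, a DNA-binding factor of the same pathway, measured 19.6, 23.8 and 13.5 FPKM in CST mice, against 25.9, 23.9 and 31.1 FPKM in Yoda1 mice, with CST mouse 2 and Yoda1 mouse 2 almost level (log2 change -0.51, SE 0.25, unadjusted p = 0.0796, adjusted p = 1.000). Usp18, a feedback inhibitor of the type I receptor, had the widest gap, with 19.1, 18 and 10.3 FPKM in CST mice, against 24.8, 34.8 and 38.9 FPKM in Yoda1 mice (log2 change -1.03, SE 0.29, unadjusted p = 0.00823, adjusted p = 0.607 by limma). Stat2, Irf9 and Usp18 were named for p values among the smallest of their lists, which favours groups that do not overlap. In these 3 genes CST mouse 3 was the lowest of the 6, as in Nlrc5 and B2m, whereas CST mouse 1 was lowest in 7 of the 10 class I and immunoproteasome genes. Other genes of these lists were ordered differently, and these were picked after their values were seen: Irf8, a factor of leukocytes, measured 11, 14.8 and 11.5 FPKM in CST mice, against 25, 23.5 and 7.99 FPKM in Yoda1 mice, with Yoda1 mouse 3 lowest. The ligands themselves were near the limit of detection: Ifng held at most 5 reads in any library, Ifnk at most 2 and Ifnb1 at most 1, and Ifne, Ifnl2 and Ifnl3 held 0, a count that allows up to 3 reads per library.

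Several lists of cell type markers were also lower on average in CST skin, though their order of the mice differed from that of the 10 genes. MHC class II genes, which mark professional antigen-presenting cells, were below 0 in 7 of 7 tested genes with a median of -0.44 and sums of 867 to 1590 FPKM in CST and 461 to 4002 FPKM in Yoda1. H2-Ab1, a class II chain, measured 259, 487 and 501 FPKM in CST mice, against 801, 1269 and 160 FPKM in Yoda1 mice. Yoda1 mouse 3 was thus the lowest of all mice for class II, while for most class I genes it was second lowest. Leukocyte markers were below 0 in 5 of 6 genes. Their mean log2(FPKM + 1) was 6.78, 6.44 and 5.83 in CST mice 1 to 3, against 7.15, 7.14 and 5.77 in Yoda1 mice. CST mouse 1 was thus the highest CST mouse for leukocyte markers, while it was the lowest of all mice for most class I genes. Macrophage markers were below 0 in 7 of 8, with sums of 1172 to 1541 FPKM in CST and 869 to 3655 FPKM in Yoda1. T and NK cell markers were below 0 in 6 of 7 tested, with sums of 15.1 to 24.5 FPKM in CST and 13.6 to 35.9 FPKM in Yoda1. Within the macrophage list Cd14 was the exception, at 392, 142 and 149 FPKM in CST mice, against 107, 63.2 and 48.7 FPKM in Yoda1 mice. Fibroblast markers were below 0 in 5 of 5, whereas keratinocyte markers were above 0 in 7 of 7 and neutrophil markers in 6 of 6 tested, with neutrophil sums of 1714 to 11016 FPKM in CST and 681 to 4096 FPKM in Yoda1. The neutrophil sum of 11016 FPKM was that of CST mouse 1, and S100a8, a neutrophil calprotectin gene, measured 3066, 474 and 449 FPKM in CST mice, against 533, 246 and 1487 FPKM in Yoda1 mice, so that its mean was higher in CST through that mouse. S100a8 and S100a9 made up most of the sums, with S100a9 at 7553, 1170 and 1208 FPKM in CST mice, against 954, 411 and 2539 FPKM in Yoda1 mice. The sums therefore do not measure neutrophil content. Cxcr2, of the same list, measured 30.7, 22.9 and 8.94 FPKM in CST mice, against 10.2, 6.08 and 15.9 FPKM in Yoda1 mice. In 1 of the 6 tested neutrophil markers all CST mice lay above all Yoda1 mice, which 659 of 14588 tested genes did. Endothelial markers were below 0 in 5 of 5 genes (median -0.24), adipocyte markers in 4 of 4 (-0.69) and dendritic and Langerhans cell markers in 3 of 5 tested (-0.04). Leukocyte receptors of families that bind class I were below 0 in 4 of 5 tested (-0.45), with Lilrb4a the exception at 0.99 (SE 0.60). None of 5 B and plasma cell markers averaged 1 FPKM, and Ms4a1 was at 0 reads in 4 libraries. Cd8a, the class I co-receptor of cytotoxic T cells, reached at most 21 reads in a library.

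With the leukocyte score of each library as a covariate all 10 changes stayed below 0, as did 50.5% of all genes, with a median of -0.31, and 0 passed the adjusted threshold. Psmb10 was then at -0.53 (SE 0.42), Psmb9 at -0.52 (SE 0.35) and H2-K1 at -0.19 (SE 0.29). The part of the macrophage, fibroblast, keratinocyte and neutrophil markers in these differences was not tested.

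**Figure D4:**
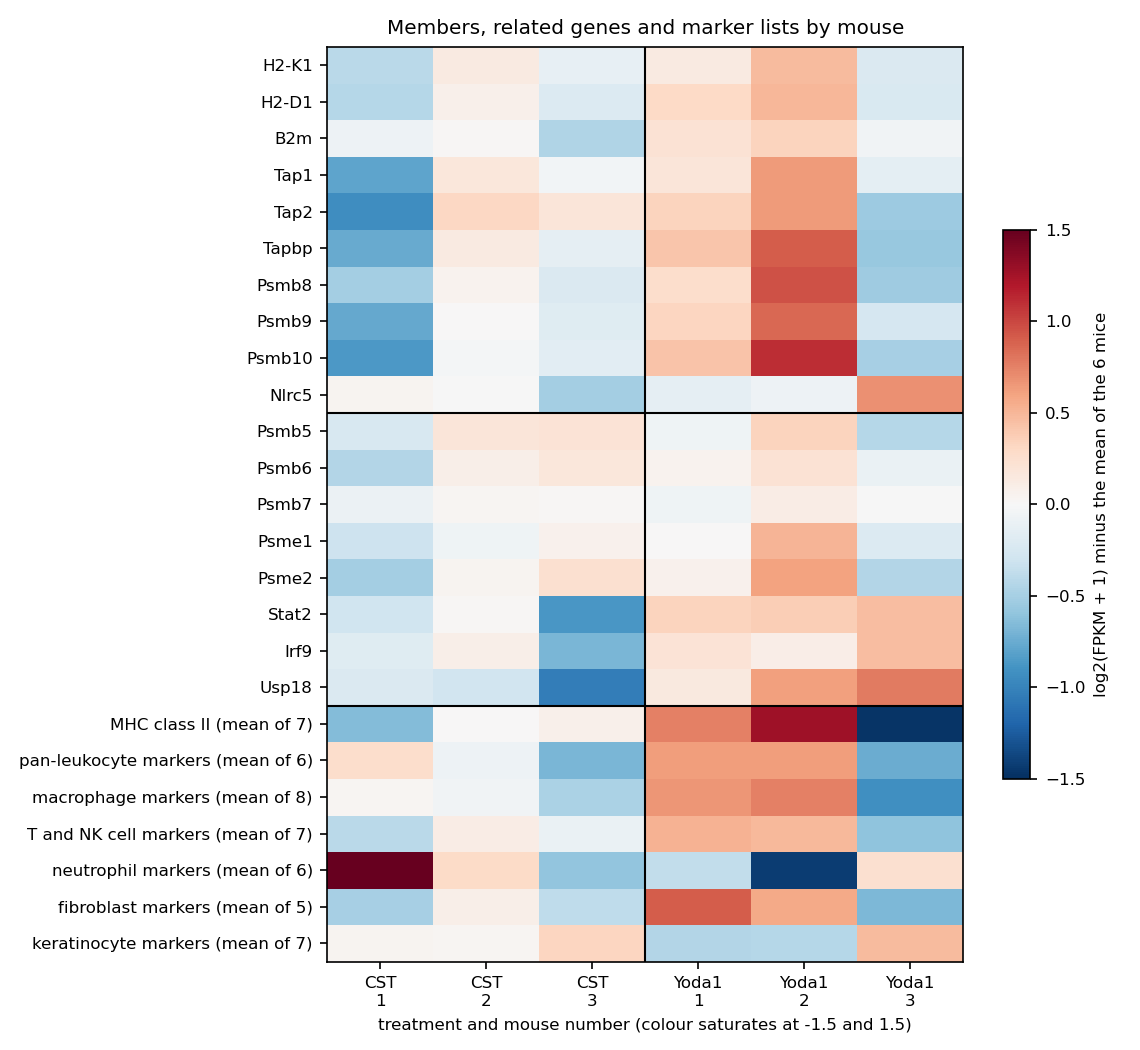
Level in each mouse (columns, CST left of Yoda1) relative to the mean of the 6 mice on the log2(FPKM + 1) scale, for the 10 genes, related proteasome and interferon genes, and the mean of each marker list (rows). Yoda1 mouse 3 is pale or blue for 9 of the 10 genes and for class II and leukocyte markers, and red for Nlrc5, Stat2, Irf9 and Usp18.

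Of 14578 other tested genes, 299 had a Pearson r over 0.9 with the mean standardised profile of the 10 genes over the 6 libraries. The highest was Ifitm3, an interferon-induced membrane protein, at 0.99, with 416, 760 and 508 FPKM in CST mice, against 843, 1418 and 584 FPKM in Yoda1 mice. Dlk1, Prrx2, Gmds and Nans followed, at 0.98 to 0.99. For Nlrc5 alone 201 of 14587 genes passed 0.9, led by Cul2, Slf1 and Canx at 0.98. Canx, the calnexin that holds newly made heavy chains, measured 160, 168 and 137 FPKM in CST mice, against 161, 154 and 213 FPKM in Yoda1 mice. With 6 libraries such values describe these mice and carry no test.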

How the data were processed

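The authors deposited FPKM values per gene for 6 libraries of skin RNA. The sources used here do not give the aligner, counting tool or strand setting, and the submitters' processing notes name GRCm38 and mm10. Of 52029 gene identifiers found in GENCODE M21, 2.8% had the deposited start, so positions were taken from GENCODE M21 (GRCm38). Groups and mouse numbers come from the sample titles. Whole reads were recovered from the steps of the deposited FPKM: all 30697 genes above 0 came out whole within 0.0001 reads, so 1 read on 1 kb was worth 0.0338 to 0.042 FPKM. Depth covers counting error only. The steps imply counted lengths of 799 to 2780 bases for the 10 genes, and levels between genes depend on them.

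The 14588 genes averaging 1 FPKM or more were tested with limma 3.58.1 in R 4.3.3 (lmFit, eBayes with trend) on log2(FPKM + 1), two-sided, CST against Yoda1, with Benjamini-Hochberg adjustment over all of them and a threshold of 0.05. The log scale understates changes of low genes. Ratios were compared by exact permutation. The test was checked on simulated data with the same spread setting for all genes and no library set apart. That check therefore does not cover the uneven libraries seen here. The genes, 21 comparison lists and motifs were chosen with earlier results of these data known. Named genes are the 10, up to 4 of each list with the smallest p, the 5 most alike, and genes that overlap or resemble the 10; the interferon ligands, Irf8, S100a8, Cd8a and Ms4a1 were added after their values were seen. One gene of the lists is not reported here. In all, 19 alternatives were run.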

Additional observations from a re-analysis of the deposited data

How the results depend on the processing

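Over 19 alternatives (pseudocount, filter, scaling, library weights, variance model, reads in place of FPKM, replicate block, leukocyte covariate and libraries left out) 0 members passed the adjusted threshold, 9 to 10 were lower in CST, and the median log2 change ran from -0.63 to -0.23. Library weights, which gave Yoda1 mouse 3 a weight of 0.193, raised the genes called from 0 to 1348 (9.24% of those tested) and the members with an unadjusted p under 0.05 from 0 to 4, with Nlrc5 at 0.00 and the lowest adjusted p of a member at 0.097 (Psmb10). Leaving out 1 library gave 0 to 136 genes called (8 without CST mouse 2, 136 without Yoda1 mouse 2), 0 to 4 members with an unadjusted p under 0.05 and 0 to 9 members without overlap, with 1 without CST mouse 2 (where 980 of 14588 genes did not overlap in that direction) and 9 without Yoda1 mouse 3. Without CST mouse 1 and Yoda1 mouse 3 together these were 3 and 9. Median-ratio scaling left 1 member without overlap, against 435 of 14588 genes. Tap2 ran from -0.64 without Yoda1 mouse 3 to 0.10 without CST mouse 1. The differences in log2 ratio ran from -0.75 to -0.38 for Psmb8 to Psmb5, -0.73 to -0.32 for Psmb9 to Psmb6 and -1.10 to -0.34 for Psmb10 to Psmb7. The cause of these shifts was not tested.

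No pairing by mouse number was seen: same-numbered mice correlated at -0.08, 0.21 and -0.20 in their deviations from the group means. Mice of different numbers correlated at -0.34 to 0.34. With 3 mice a group these values cannot settle whether the numbers pair the libraries. With the replicate block limma called 0 genes (smallest adjusted p = 0.0828) and 680 had an unadjusted p under 0.05, against 584 without it and 585 by limma-voom on the recovered reads, which also called 0 genes. The spread between mice of a group was 0.38 (SD, log2 scale) for the mean of the 10 genes, close in size to their median change, which limits what 3 mice a group can show.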
